A study of Mus musculus with 24 samples.

Results

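The 10 genes described here encode regulatory T cell (Treg) proteins, immune checkpoint receptors and checkpoint ligands: Foxp3, Il2ra, Ctla4, Icos, Pdcd1, Lag3, Tigit, Havcr2, Cd274 and Pdcd1lg2. They were chosen by symbol, and each matched 1 row of the tumor table, which held 54532 rows, and 1 row of the cell table, which held 35275. Bulk total RNA was sequenced from 18 orthotopic tumors and 6 cultures of a pair of mouse mammary lines derived from D2 hyperplastic alveolar nodules of BALB/c mice, the dormancy-competent D2.1 line and the proliferative D2A1 line. Each line was implanted in the mammary fat pad (MFP) of female mice aged 8 to 12 weeks, either immunocompetent BALB/c (BALB/cAnNTac) or SCID-beige, a C.B-Igh-1b strain with the Prkdc scid and Lyst bg mutations, and tumors were collected at about 500 mm3. The groups were D2.1 tumors in BALB/c (n = 4), D2.1 tumors in SCID-beige (n = 5), D2A1 tumors in BALB/c (n = 4), D2A1 tumors in SCID-beige (n = 5), and cultured D2.1 and D2A1 cells (n = 3 each). The Prkdc scid mutation leaves these hosts without mature T and B cells, and the Lyst beige mutation impairs natural killer (NK) cell function, while macrophages and dendritic cells are kept. A tumor library holds RNA of tumor cells and host cells together, and 1 line stands for each of the dormant and proliferative behaviors.

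Foxp3 is the transcription factor that specifies Tregs, the CD4+ T cells that restrain immune responses, and Tregs carry high levels of the interleukin-2 receptor alpha chain (Il2ra, CD25) and of CTLA-4. CTLA-4 competes with the costimulatory receptor CD28 for CD80 and CD86 on antigen-presenting cells, and ICOS is a costimulatory receptor of activated T cells and Tregs that binds ICOS ligand. PD-1 (Pdcd1), LAG-3, TIGIT and TIM-3 (Havcr2) are inhibitory receptors that appear on activated or chronically stimulated T cells. PD-1 binds PD-L1 (Cd274) and PD-L2 (Pdcd1lg2), LAG-3 binds MHC class II, TIGIT binds the nectin family proteins CD155 (Pvr) and nectin-2, and galectin-9 (Lgals9) is among the ligands of TIM-3. Several members are not limited to T cells: TIM-3 is also found on macrophages and dendritic cells, LAG-3 and TIGIT on NK cells, and PD-L1 on tumor cells and many leukocytes, where interferon-gamma raises it.

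Between 13566949 and 18355153 reads were assigned to genes per tumor library and between 16837260 and 24818234 per culture library. Levels are given as counts and as CPM, the count relative to the library total after scaling by the trimmed mean of M values. Before that scaling, 3 counts correspond to 0.163 to 0.221 CPM in the tumors. A gene was called changed at an adjusted p under 0.05 in edgeR's quasi-likelihood test. Nothing in the labels says that tumors came from separate litters or cultures from separate passages, so p-values measure the spread between these samples. No pair of replicates was a copy. The host labels were checked against 14 T cell markers, whose summed level was 146 to 391 CPM in D2.1 tumors from BALB/c mice, 15.3 to 47.0 CPM in D2A1 tumors of BALB/c mice, 23.3 to 63.8 CPM in D2.1 tumors of SCID-beige mice and 6.93 to 10.6 CPM in D2A1 tumors of SCID-beige mice. The sum separated the hosts within each line, but D2.1 tumors of SCID-beige mice overlapped D2A1 tumors of BALB/c mice. In D2.1 tumors of SCID-beige mice Cd4 (7.66 CPM), Trbc1 (6.75 CPM) and Cd2 (4.29 CPM) were counted, while Cd3e had 9 counts and Cd6 had 3 over all libraries. This sum is therefore no measure of T cells in that group. Among the D2.1 tumors from BALB/c mice, replicate 1 held 391 CPM of milk protein transcripts and 36.3 CPM of skin keratin transcripts and replicate 4 held 126 CPM of the skin transcripts, so the calls of named genes that rest on this group are also given without both. Replicate 4 also had the highest summed B cell markers, at 107 CPM against 8.01 to 38.2 CPM in the other 3.

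**Figure D1:**
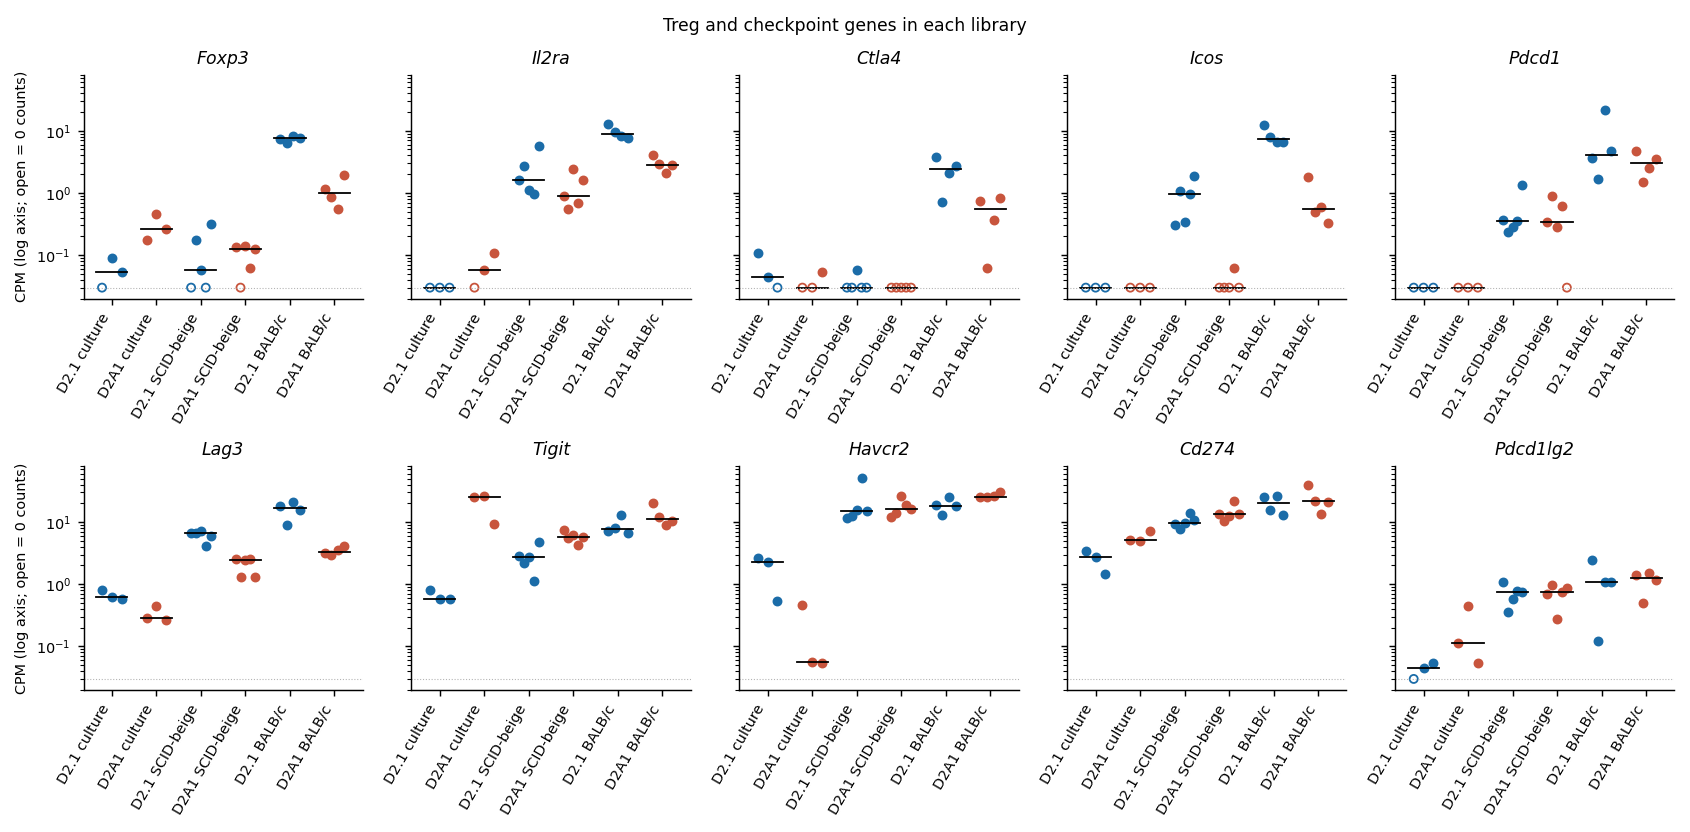
Levels of the 10 genes in each of the 24 libraries, with CPM on a log axis, 1 panel per gene and 1 column per group. Points are libraries (blue D2.1, red D2A1), black lines are group medians, and open circles mark libraries with 0 counts. Foxp3 stood at 6.39 to 8.12 CPM in the D2.1 tumors from BALB/c mice, above every other library, whereas the group medians of Havcr2 ran from 14.9 to 25.6 CPM over the 4 tumor groups.

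Of the 10 genes, Cd274 and Pdcd1lg2 lie 22823 bases apart on chromosome 19 and Ctla4 and Icos 62094 bases apart on chromosome 1 (GRCm38). RefSeq start sites were found for 8 members, and Lag3 and Icos had no entry. The 250 bases before the start sites are shown for the Treg genes that differed most between hosts, Foxp3 and Ctla4, and for Tigit and Cd274, which differed between the lines in culture. They were searched on both strands for TTCNNNGAA, the GAS element bound by STAT proteins, and for GGAAAAT, the core bound by NFAT factors of activated T cells. The search also covered AGATAA, a site of GATA factors, and capitals mark the matches. Foxp3 has a pair of listed starts, at chrX:7579426-7579675 and chrX:7580233-7580482 on the plus strand. The other windows are chr1:60908775-60909024 (plus) for Ctla4, chr16:43664185-43664434 (minus) for Tigit and chr19:29367188-29367437 (plus) for Cd274.
Foxp3 first window: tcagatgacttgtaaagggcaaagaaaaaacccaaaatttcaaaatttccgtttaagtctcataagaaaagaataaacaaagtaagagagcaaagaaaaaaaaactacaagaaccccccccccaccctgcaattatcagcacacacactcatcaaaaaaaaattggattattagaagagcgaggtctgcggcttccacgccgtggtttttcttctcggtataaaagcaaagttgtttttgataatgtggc
Foxp3 second window: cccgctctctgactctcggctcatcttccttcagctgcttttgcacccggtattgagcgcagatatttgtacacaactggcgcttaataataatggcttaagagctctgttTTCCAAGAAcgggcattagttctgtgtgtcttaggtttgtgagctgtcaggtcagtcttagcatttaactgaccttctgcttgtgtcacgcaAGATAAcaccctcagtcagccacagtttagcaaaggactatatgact
Ctla4: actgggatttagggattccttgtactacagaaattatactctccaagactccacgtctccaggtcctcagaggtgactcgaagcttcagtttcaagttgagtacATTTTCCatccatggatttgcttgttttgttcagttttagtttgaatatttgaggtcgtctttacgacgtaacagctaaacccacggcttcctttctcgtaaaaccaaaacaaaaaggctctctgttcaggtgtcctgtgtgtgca
Tigit: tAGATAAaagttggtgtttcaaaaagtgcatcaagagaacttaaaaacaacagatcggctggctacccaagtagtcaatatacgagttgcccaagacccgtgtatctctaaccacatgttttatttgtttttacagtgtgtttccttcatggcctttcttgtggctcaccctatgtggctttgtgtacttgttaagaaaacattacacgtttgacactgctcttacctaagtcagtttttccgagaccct
Cd274: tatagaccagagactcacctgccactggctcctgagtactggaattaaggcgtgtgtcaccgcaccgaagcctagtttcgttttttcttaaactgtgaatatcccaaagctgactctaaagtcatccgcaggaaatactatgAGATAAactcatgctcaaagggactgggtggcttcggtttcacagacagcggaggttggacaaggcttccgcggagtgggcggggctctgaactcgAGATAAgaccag
The second Foxp3 window held the GAS letters from -139 to -131 of the start and AGATAA from -47 to -42. The GAS pattern is its own reverse complement, so a match counts on both strands. The Ctla4 window held the NFAT core on the reverse strand from -146 to -140, and AGATAA stood at -249 to -244 of Tigit and at -108 to -103 and -12 to -7 of Cd274. Of 32851 RefSeq windows of this length, 7.02% held the GAS letters, 4.16% the NFAT core and 9.99% AGATAA. The ISRE letters were in 2.98% of these windows and in no window of a member. Pdcd1lg2 also held AGATAA. These are matches of letters only.

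The comparison of hosts within a line asked which transcripts were higher where the adaptive immune system was intact. In D2.1 tumors all 10 members passed the filter on low counts, and 5 were called higher in BALB/c than in SCID-beige mice (Foxp3, Ctla4, Icos, Pdcd1 and Lag3) and none lower. Of the 14929 genes tested, 0.871% were called higher and 0.0201% lower. The median log2 difference of the members was 1.87, against -0.01 over all genes. In D2A1 tumors 7 members passed the filter and edgeR called none of them, against 0.906% of 14572 genes called higher and 0.261% lower, although 6 of the 7 had an unadjusted p under 0.05, as did 10.1% of all genes. Foxp3, Ctla4 and Icos were too low in D2A1 tumors to pass the filter there. DESeq2 called 5 members higher in BALB/c in D2A1 tumors, namely Foxp3, Ctla4, Icos, Pdcd1 and Tigit, and 2.91% of 17779 genes in either direction. In bulk tumors, fewer cells of a type and less RNA per cell cannot be told apart. Without replicates 1 and 4 of the D2.1 tumors from BALB/c mice, edgeR called none of the 10 members in the D2.1 comparison, and 11 of 15672 genes (0.0702%) in all, while the log2 differences of the 5 called members kept their direction, at 5.98 for Foxp3, 6.20 for Ctla4, 3.01 for Icos, 4.48 for Pdcd1 and 1.32 for Lag3.

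Between the lines in BALB/c mice all 10 members were tested, and Foxp3, Il2ra, Ctla4, Icos and Lag3 were called higher in D2.1 than in D2A1 tumors. The background was high, with 16.8% of 14953 genes called higher and 15.8% called lower, and the median log2 difference was 1.54 for the members and -0.02 for all genes. This comparison and the host comparisons share the BALB/c tumors, so their results are not independent. Between the lines in SCID-beige mice 6 members were tested, with Lag3 called higher and Tigit lower in D2.1, against 17.2% and 14.8% of 14355 genes. In culture 3 members were tested, and Tigit and Cd274 were called lower in D2.1 than in D2A1 cells, as were 20.7% of 12489 genes.

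**Figure D2:**
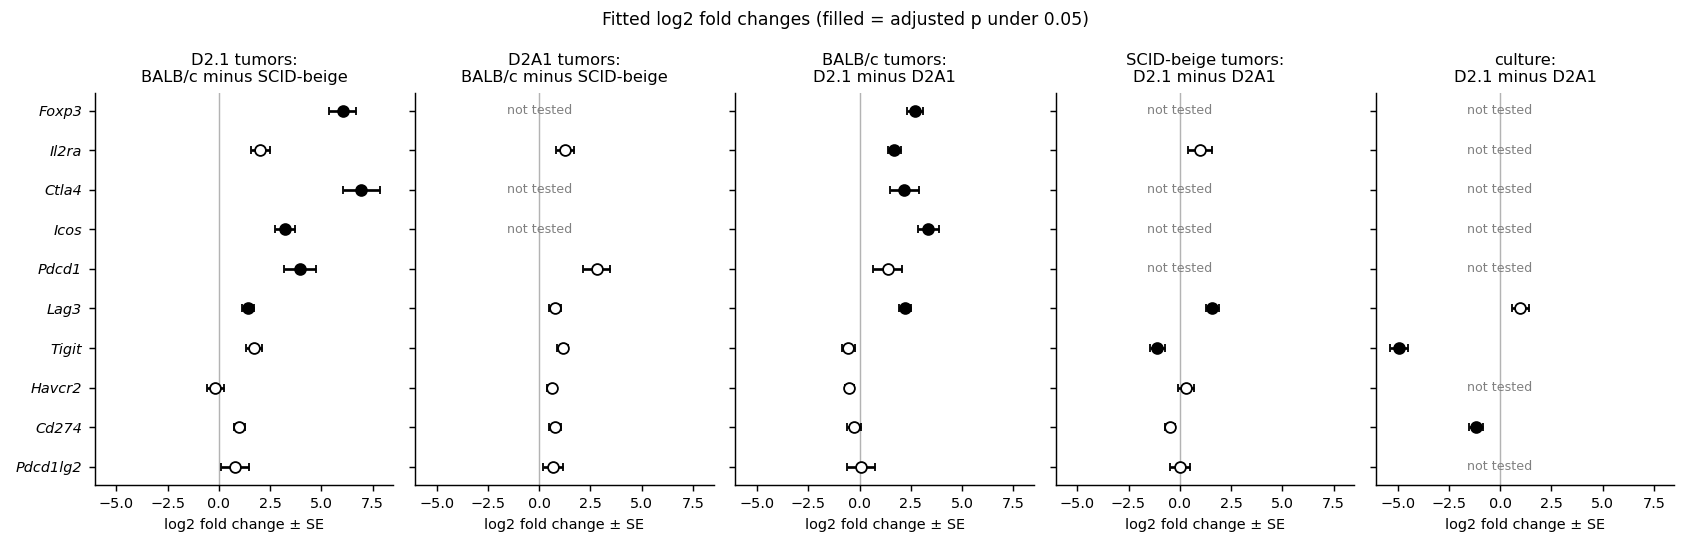
Log2 difference (± SE) of each member in 5 comparisons, the BALB/c minus SCID-beige difference in D2.1 and in D2A1 tumors and the D2.1 minus D2A1 difference in BALB/c tumors, SCID-beige tumors and culture. Filled symbols have an adjusted p under 0.05 and members that did not pass the filter on low counts are marked as not tested. Foxp3, Ctla4 and Icos had the widest host differences in D2.1 tumors (6.03, 6.95 and 3.22), and Tigit had the widest difference between cultured lines (-4.93).

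Foxp3, on chromosome X (7573644 to 7595245, plus strand), had a host difference in D2.1 tumors that was exceeded by Ctla4 alone among the members. The 4 D2.1 tumors from BALB/c mice held 140, 106, 140 and 118 Foxp3 counts (7.39 ± 0.726 CPM, SD), and the 5 of SCID-beige mice held 0, 3, 1, 0 and 5 (0.110 ± 0.135 CPM). The groups did not overlap, and the SCID-beige tumors were at or near the floor of 3 counts. The log2 difference was 6.03 (SE 0.675, adjusted p = 0.00146), and the call held without each library in turn. Without replicates 1 and 4 of the BALB/c group, the difference was 5.98 with an adjusted p of 0.0587. The D2A1 tumors of BALB/c mice held 20, 14, 9 and 35 counts (1.13 ± 0.598 CPM) and those of SCID-beige mice 2, 0, 2, 1 and 2 (0.0929 ± 0.0609 CPM). Every D2A1 tumor of a BALB/c mouse was therefore above every SCID-beige tumor, at a lower level than in D2.1 tumors. Foxp3 passed a looser filter of 10 counts in D2A1 tumors, with a log2 host difference of 3.51 and an adjusted p of 0.0360. Without replicate 3 of the D2A1 tumors of BALB/c mice it also passed the main filter, at 3.71 with an adjusted p of 0.0298. In the comparison of lines in BALB/c mice Foxp3 was higher in D2.1 by 2.71 (SE 0.394, adjusted p = 5.29e-04), a call that held without each library and without replicates 1 and 4 of D2.1 (adjusted p = 0.00649).

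Cultured cells gave 0, 2 and 1 Foxp3 counts in D2.1 and 3, 8 and 5 in D2A1. The ratio of the summed counts was 5.92 in favor of D2A1 (95% exact counting interval 1.69 to 31.7). Foxp3 did not pass the main filter there, and under a filter of 10 counts the difference was -2.43 for D2.1 minus D2A1 (adjusted p = 0.0606), with adjusted p = 0.0893 with no filter and 0.133 in DESeq2. Foxp3 shares its position with Flicr on the same strand (at most 16 counts) and with Ppp1r3f on the opposite strand (8 to 83 counts), and whether counting used strand was not given in the sources used here. Reads from overlapping genes could therefore not be separated.

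Il2ra, the high-affinity interleukin-2 receptor chain (chromosome 2, 11642807 to 11693193), was present in every tumor. D2.1 tumors from BALB/c mice held 237, 159, 144 and 121 counts (9.59 ± 2.19 CPM) and those of SCID-beige mice 26, 47, 19, 16 and 90 (2.41 ± 1.95 CPM). Although the ranges did not overlap, the log2 host difference of 2.03 (SE 0.485) missed the threshold (adjusted p = 0.0785). The side of the threshold changed with the library, the tool and the filter. Without SCID-beige replicate 5, the highest of its group, the difference was 2.61 with an adjusted p of 0.0196, and with all libraries it was called by DESeq2 (adjusted p = 0.00158), with no filter (0.0252) and in 1 fit of all tumors (0.0406). In D2A1 tumors Il2ra had 71, 47, 34 and 50 counts in BALB/c (2.96 ± 0.855 CPM) and 13, 8, 35, 11 and 26 in SCID-beige mice (1.24 ± 0.790 CPM), ranges that overlapped (log2 difference 1.26, SE 0.452, adjusted p = 0.304). Il2ra was higher in D2.1 than in D2A1 tumors of BALB/c mice by 1.70 (SE 0.302, adjusted p = 0.00174, and 0.0137 without replicates 1 and 4 of D2.1), while the 0.97 in SCID-beige mice missed the threshold (SE 0.581, adjusted p = 0.228). Cultured cells held 3 Il2ra counts in all, each of them in D2A1.

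Ctla4, the inhibitory receptor for CD80 and CD86 (chromosome 1, 60887000 to 60915832), was close to absent from SCID-beige tumors. In D2.1 tumors it had 71, 12, 36 and 42 counts in BALB/c mice (2.33 ± 1.28 CPM) and 1 count over all 5 SCID-beige libraries. The ratio of summed counts was 197 (95% exact counting interval 34.9 to 7832), and the fit gave a log2 difference of 6.95 (SE 0.890, adjusted p = 0.00336) that held without each library. In D2A1 tumors it had 13, 1, 6 and 15 counts in BALB/c mice (0.502 ± 0.358 CPM) and 0 in all 5 SCID-beige libraries, so the mean level was at least 2.52-fold higher in BALB/c against a floor of 3 counts per library. Each BALB/c tumor of either line thus held Ctla4 reads, with replicate 2 lowest in both lines. The pseudogene Rpl18-ps1 overlaps Ctla4 on the same strand and had 0 to 18 counts per tumor.

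Between the lines in BALB/c mice the Ctla4 ranges overlapped, and the log2 difference of 2.19 (SE 0.703, adjusted p = 0.0355) was the least stable of the 5 called there. It held only without replicate 2 of D2.1 or replicate 4 of D2A1, and without each of the other 6 libraries the adjusted p ran from 0.057 to 0.0991. Without replicates 1 and 4 of D2.1 it was 0.279.

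Icos (chromosome 1, 60977927 to 61000320) followed the pattern of Ctla4 in D2A1 tumors but was readily counted in D2.1 tumors of SCID-beige mice. D2.1 tumors held 228, 131, 115 and 103 counts in BALB/c (8.34 ± 2.64 CPM) and 5, 18, 6, 16 and 30 in SCID-beige mice (0.910 ± 0.645 CPM). The log2 difference was 3.22 (SE 0.507, adjusted p = 0.0154), and it was not called without BALB/c replicate 1 (adjusted p = 0.0723). D2A1 tumors held 31, 8, 10 and 6 counts in BALB/c mice (0.807 ± 0.669 CPM) and a single count in SCID-beige mice, a ratio of 60.9 (95% exact counting interval 10.5 to 2450). All 4 D2A1 tumors of BALB/c mice were above all 5 of SCID-beige mice.

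Icos had the largest difference between the lines in BALB/c mice among the members, 3.36 higher in D2.1 (SE 0.523, adjusted p = 8.16e-04), and it held without each library and without replicates 1 and 4 (adjusted p = 0.00767). SCID-beige tumors of the lines did not overlap either, with 75 Icos counts in all in D2.1 and 1 in D2A1, a ratio of 67.8 (95% exact counting interval 11.8 to 2712). Icos did not pass the filter in that comparison, and under a filter of 10 counts it was 5.45 higher in D2.1 (adjusted p = 0.00111). No Icos read was counted in the 6 cultures. The NK marker sum moved with this difference, at 34.4 to 90.3 CPM in D2.1 and 8.46 to 20.6 CPM in D2A1 tumors of SCID-beige mice, as did the T cell marker sum given above, and their part in the result was not tested. In the D2A1 tumors most of the NK sum was Eomes (mean 11.8 CPM), which cultured D2A1 cells also held (30.7 CPM). Ncr1 averaged 7.60 CPM in these D2.1 tumors and 0.221 CPM in these D2A1 tumors.

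Pdcd1, the gene of PD-1 (chromosome 1, 94038305 to 94052553, minus strand), was the most uneven member. D2.1 tumors from BALB/c mice held 67, 28, 372 and 73 counts (7.88 ± 9.21 CPM), and replicate 3 alone supplied most of the group's reads. Those of SCID-beige mice held 6, 4, 5, 6 and 21 (0.514 ± 0.455 CPM), all below the BALB/c tumors. The log2 difference was 3.96 (SE 0.772, adjusted p = 0.0373). It held without BALB/c replicate 2 or SCID-beige replicate 5 and was lost without each of the other 7 libraries (adjusted p 0.0679 to 0.140). D2A1 tumors held 80, 24, 42 and 63 counts in BALB/c (3.04 ± 1.34 CPM) and 5, 13, 4, 10 and 0 in SCID-beige mice (0.429 ± 0.344 CPM). These ranges did not overlap, and the log2 difference of 2.81 (SE 0.663) had an adjusted p of 0.0743, which became 0.0495 without SCID-beige replicate 2. The lines overlapped in BALB/c mice (1.38 higher in D2.1, SE 0.709, adjusted p = 0.166). Without D2.1 replicate 3 this difference was 0.13, and the host difference in D2.1 tumors was 2.72. All 6 cultures had 0 Pdcd1 counts.

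Lag3, a CD4-like receptor for MHC class II (chromosome 6, 124904361 to 124911705, minus strand), was called higher in D2.1 than in D2A1 tumors in both hosts. D2.1 tumors held 338, 149, 365 and 244 counts in BALB/c (15.97 ± 5.18 CPM) and 109, 112, 123, 68 and 95 in SCID-beige mice (6.07 ± 1.20 CPM). D2A1 tumors held 55, 48, 58 and 75 in BALB/c (3.45 ± 0.519 CPM) and 37, 19, 35, 41 and 21 in SCID-beige mice (2.03 ± 0.650 CPM). Even the D2.1 tumors of SCID-beige mice were close to or above the D2A1 tumors of BALB/c mice, the lowest of the former being at 4.06 CPM and the highest of the latter at 4.16. D2.1 exceeded D2A1 by 2.21 in BALB/c (SE 0.298, adjusted p = 3.29e-04) and by 1.58 in SCID-beige mice (SE 0.319, adjusted p = 0.00193), and both calls held without each library. The call in BALB/c mice also held without replicates 1 and 4 of D2.1 (adjusted p = 0.00548).

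The host difference of Lag3 was smaller. In D2.1 tumors it was 1.43 (SE 0.282, adjusted p = 0.0385), and the call held only without BALB/c replicate 2, with adjusted p-values of 0.0557 to 0.140 without each of the other 8 libraries. In D2A1 tumors it was 0.77 (SE 0.312, adjusted p = 0.402), with ranges that did not overlap. Cultures held 15, 14 and 11 counts in D2.1 and 5, 8 and 5 in D2A1 (log2 difference 0.99, SE 0.432, adjusted p = 0.0929). As with Icos, the summed NK markers were higher in D2.1 than in D2A1 tumors, at 95.6 to 141 against 15.9 to 36.3 CPM in BALB/c mice, and their part in the Lag3 difference was not tested.

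Tigit (chromosome 16, 43648867 to 43664146, minus strand) ran opposite to the Treg genes between the lines, being higher on the D2A1 side. The D2A1 cultures held 436, 462 and 177 counts (20.2 ± 9.39 CPM) and the D2.1 cultures 15, 13 and 11 (0.660 ± 0.135 CPM). The log2 difference of D2.1 from D2A1 was -4.93 (SE 0.456, adjusted p = 4.96e-05) and held without each library. In the D2A1 cultures the 14 T cell markers summed to 2.24 to 5.13 CPM, with Trac at up to 1.84 CPM. Cd3e had 1 count in all there, and Ptprc, the pan-leukocyte CD45 gene, did not exceed 0.106 CPM. The NK list summed to 27.4 to 32.9 CPM in D2A1 cultures, where the T-box factor gene Eomes alone reached 30.7 ± 2.96 CPM, and to 4.18 to 6.42 CPM in D2.1 cultures. In the FPKM values of the cell table, which allow for gene length, Tigit had the highest level of the 10 members in D2A1 cells, at 21.8 ± 9.66.

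In tumors Tigit was also higher in D2A1. SCID-beige mice gave 110, 79, 90, 68 and 91 counts in D2A1 (5.85 ± 1.22 CPM) and 47, 37, 47, 19 and 76 in D2.1 (2.74 ± 1.33 CPM), a difference of -1.09 (SE 0.364, adjusted p = 0.0345) for D2.1 minus D2A1. The ranges overlapped through D2.1 replicate 5, and the call was lost without D2.1 replicates 1, 2 or 3 or D2A1 replicates 1 or 3 (adjusted p 0.0505 to 0.0678). BALB/c mice gave 347, 195, 146 and 187 counts in D2A1 (12.8 ± 5.02 CPM) and 136, 132, 222 and 104 in D2.1 (8.69 ± 2.83 CPM), a difference of -0.56 that missed the threshold (SE 0.320, adjusted p = 0.214). Within each line the BALB/c tumors lay above the SCID-beige tumors with no overlap, by 1.70 in D2.1 (SE 0.388, adjusted p = 0.0661) and by 1.14 in D2A1 (SE 0.272, adjusted p = 0.0771), neither of which passed. DESeq2 called both (adjusted p = 0.00140 in D2.1 and 0.00690 in D2A1).

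Havcr2, the gene of TIM-3 (chromosome 11, 46454935 to 46481255), was the member with the least difference between hosts. D2.1 tumors were at 18.9, 12.8, 25.1 and 17.8 CPM in BALB/c (18.7 ± 5.04) and at 11.7, 12.3, 15.6, 51.8 and 14.9 CPM in SCID-beige mice (21.3 ± 17.2). SCID-beige replicate 4 stood far above the other 4. The log2 host difference was -0.17 (SE 0.435, adjusted p = 0.958), and without that replicate it was 0.50 in the opposite direction (adjusted p = 0.597). D2A1 tumors held 437, 410, 427 and 543 counts in BALB/c (26.6 ± 2.33 CPM) and 174, 202, 373, 300 and 260 in SCID-beige mice (17.4 ± 5.41 CPM), 0.62 higher in BALB/c (SE 0.217, adjusted p = 0.277).

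Between the lines in BALB/c mice each D2A1 tumor had more Havcr2 than each D2.1 tumor, and the difference of -0.51 (SE 0.216) had an adjusted p of 0.0967. With the replicate number as a block, a setting that called 47.6% of all genes, the adjusted p was 0.0309 at -0.54. Without D2.1 replicate 3 the adjusted p was 0.0392. The direction in SCID-beige mice was opposite, 0.30 higher in D2.1 (SE 0.395, adjusted p = 0.609), and became -0.39 without D2.1 replicate 4. Cultures were low, with 48, 51 and 10 counts in D2.1 and 8, 1 and 1 in D2A1. Havcr2 did not pass the main filter there, and under a filter of 10 counts it was 3.22 higher in D2.1 (adjusted p = 0.0127).

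Summed macrophage markers, which cover another cell type that carries TIM-3, were 1922 to 2405 CPM in D2.1 tumors from BALB/c mice, 1022 to 2316 CPM in those of SCID-beige mice, 1574 to 2974 CPM in D2A1 tumors of BALB/c mice and 878 to 1655 CPM in those of SCID-beige mice. These ranges overlapped between hosts in both lines and between lines in both hosts. The 1022 CPM was in replicate 4 of the D2.1 tumors of SCID-beige mice, the library with the highest Havcr2 (51.8 CPM). The part of these markers in the Havcr2 levels was not tested.

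**Figure D3:**
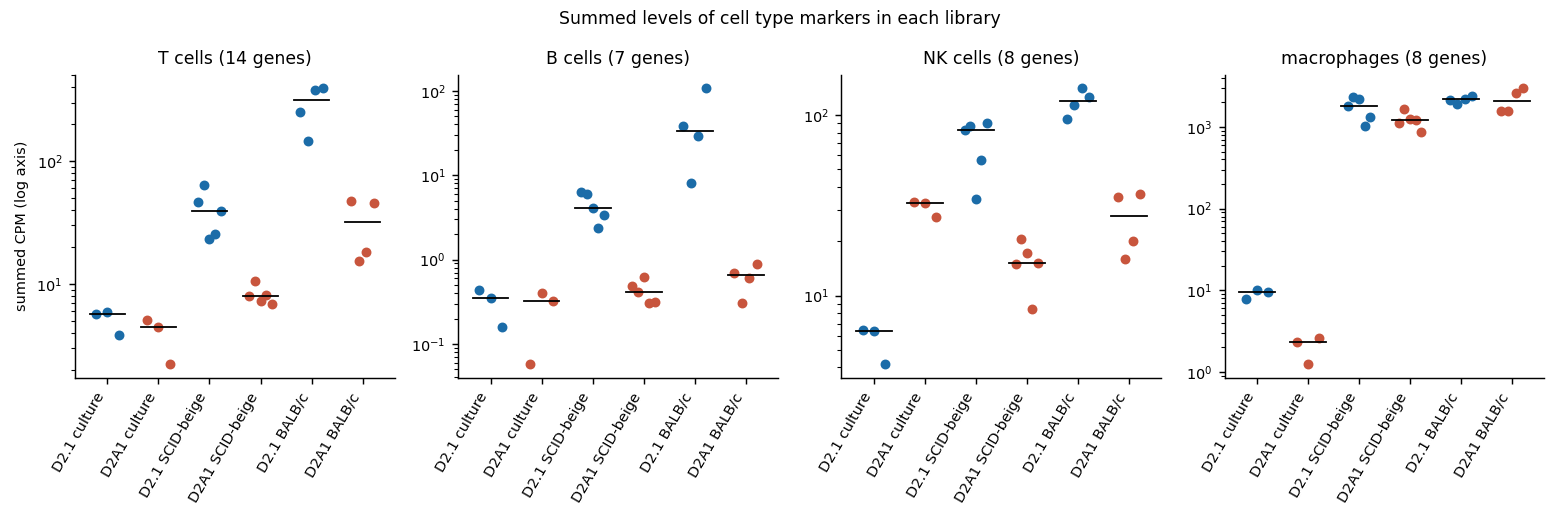
Summed CPM (log axis) of the T cell, B cell, NK cell and macrophage marker lists in each library, by group. Points are libraries and black lines are medians. T cell markers reached 146 to 391 CPM in D2.1 tumors from BALB/c mice and 6.93 to 10.6 CPM in D2A1 tumors of SCID-beige mice, whereas macrophage markers were within 878 to 2974 CPM in all tumors.

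Cd274, the gene of PD-L1 (chromosome 19, 29367455 to 29388095), was counted in all 24 libraries, and its tumor levels overlapped between the lines in both hosts. D2.1 tumors held 468, 263, 446 and 201 counts in BALB/c (19.9 ± 6.52 CPM) and 150, 133, 165, 230 and 168 in SCID-beige mice (10.2 ± 2.22 CPM). D2A1 tumors held 687, 355, 225 and 378 in BALB/c (24.1 ± 11.1 CPM) and 195, 152, 181, 351 and 210 in SCID-beige mice (14.3 ± 4.28 CPM). Group means were higher in BALB/c in both lines, with overlapping ranges, and the host differences of 1.0 in D2.1 (SE 0.267, adjusted p = 0.122) and 0.75 in D2A1 tumors (SE 0.301, adjusted p = 0.390) did not pass in edgeR, while DESeq2 called that in D2.1 tumors (adjusted p = 0.0215). In BALB/c mice the lines differed by -0.27 (SE 0.343, adjusted p = 0.588) and in SCID-beige mice by -0.49 (SE 0.242, adjusted p = 0.141).

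Cultured D2A1 cells had more Cd274 than D2.1 cells, at 89, 86 and 136 counts (5.75 ± 1.30 CPM) against 63, 61 and 27 (2.52 ± 1.002 CPM). The difference of -1.19 for D2.1 minus D2A1 (SE 0.340, adjusted p = 0.0207) was not called without D2A1 replicate 3 (adjusted p = 0.0532) or D2.1 replicate 2 (adjusted p = 0.0608). Cultures and tumors were tabulated separately, so their levels were not tested against each other.

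Pdcd1lg2, the gene of PD-L2 (chromosome 19, 29410919 to 29471161), was low throughout. BALB/c tumors held 46, 2, 19 and 17 counts in D2.1 (1.19 ± 0.962 CPM) and 24, 8, 25 and 21 in D2A1 (1.14 ± 0.453 CPM), and SCID-beige tumors held 18, 6, 10, 13 and 12 (0.713 ± 0.278 CPM) and 10, 14, 4, 12 and 14 (0.712 ± 0.267 CPM). All ranges overlapped, and the host differences were 0.78 in D2.1 (SE 0.682, adjusted p = 0.819) and 0.67 in D2A1 (SE 0.478, adjusted p = 0.783). Cultures held 2 counts in all in D2.1 and 11 in D2A1, a ratio of 6.10 (95% exact counting interval 1.33 to 56.7). The antisense gene A930007I19Rik, which overlaps Pdcd1lg2, had 0 to 34 counts per tumor, so reads of the pair could not be told apart without strand.

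A test of the interaction asked whether the host difference itself differed between D2.1 and D2A1 tumors. EdgeR called 0 of the 10 members, against 0.0187% of 16036 genes, and DESeq2 called none either. Foxp3 was the only member with an unadjusted p under 0.05 in edgeR, a threshold that 8.45% of all genes met (log2 interaction 2.49, SE 1.05, adjusted p = 0.523). A host difference called in D2.1 and not in D2A1 tumors was therefore not shown to differ between them for any member.

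Because the T cell marker sums differed between the lines, the members were also set against T cell transcripts within each BALB/c tumor. CD3 counts (Cd3d, Cd3e and Cd3g summed) were 927, 431, 1254 and 1132 in D2.1 and 154, 50, 49 and 143 in D2A1 tumors. Foxp3 per CD3 count was 0.151, 0.247, 0.112 and 0.105 in D2.1 and 0.133, 0.287, 0.192 and 0.247 in D2A1 tumors. These ranges overlapped, and the mean log2 ratio was 0.51 lower in D2.1 (SE 0.37, exact two-sided permutation p = 0.229, 0.286 adjusted over 5 ratios). The Foxp3 level was thus higher in D2.1 tumors, and the mean of Foxp3 per CD3 was not.

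Foxp3 per Cd4 count was 0.266, 0.427, 0.548 and 0.218 in D2.1 and 1, 0.879, 0.388 and 1.34 in D2A1 tumors, a log2 difference of -1.27 (SE 0.49, exact permutation p = 0.0857, adjusted 0.190). Cd4 was also counted in SCID-beige mice, at 7.66 CPM in D2.1 and 1.64 CPM in D2A1 tumors, against 23.2 and 1.26 CPM in BALB/c mice. Cd4 is therefore no measure of T cells alone here. Cd8a per Foxp3, the transcript analog of a CD8 to Treg ratio, was 2.07, 1.54, 5.82 and 3.61 in D2.1 and 7.20, 1.76, 1.95 and 3 in D2A1 tumors (difference -0.04, SE 0.63, exact permutation p = 0.943, adjusted 0.943). Its sign turned without D2.1 replicate 1 (0.12), D2.1 replicate 2 (0.26) or D2A1 replicate 1 (0.40). Neither ratio separated the lines.

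Pdcd1 per CD3 count was the ratio that did not overlap. It was 0.0728, 0.0660, 0.297 and 0.0649 in D2.1 and 0.521, 0.485, 0.859 and 0.443 in D2A1 tumors, a log2 difference of -2.50 (SE 0.58). The exact permutation p of 0.0286 is the smallest that 4 against 4 tumors can give, and it was 0.143 after adjustment over the 5 ratios. Ctla4 per CD3 differed by -0.98 (SE 0.58, exact permutation p = 0.114, adjusted 0.190) with overlap. With same-numbered tumors taken as pairs, Ctla4 per CD3 and Pdcd1 per CD3 were lower in D2.1 in 4 of 4 pairs, and both had an exact paired permutation p of 0.125, the smallest that 4 pairs can give. Without replicates 1 and 4 of D2.1, the differences were -1.42 for Ctla4 and -1.99 for Pdcd1 per CD3, and the exact permutation p of 0.133 for both is the smallest that 2 against 4 tumors can give. For members that other cells also express, the count per 100 CD3 counts ran from 9.19 to 30.6 in D2.1 and 131 to 390 in D2A1 for Tigit, from 24.6 to 49.2 and 284 to 871 for Havcr2, and from 17.8 to 61.0 and 264 to 710 for Cd274, as a description only. In D2A1 tumors the read counts of each of these genes thus exceeded the CD3 read counts. Gene length was not allowed for, so numbers of transcripts were not compared.

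**Figure D4:**
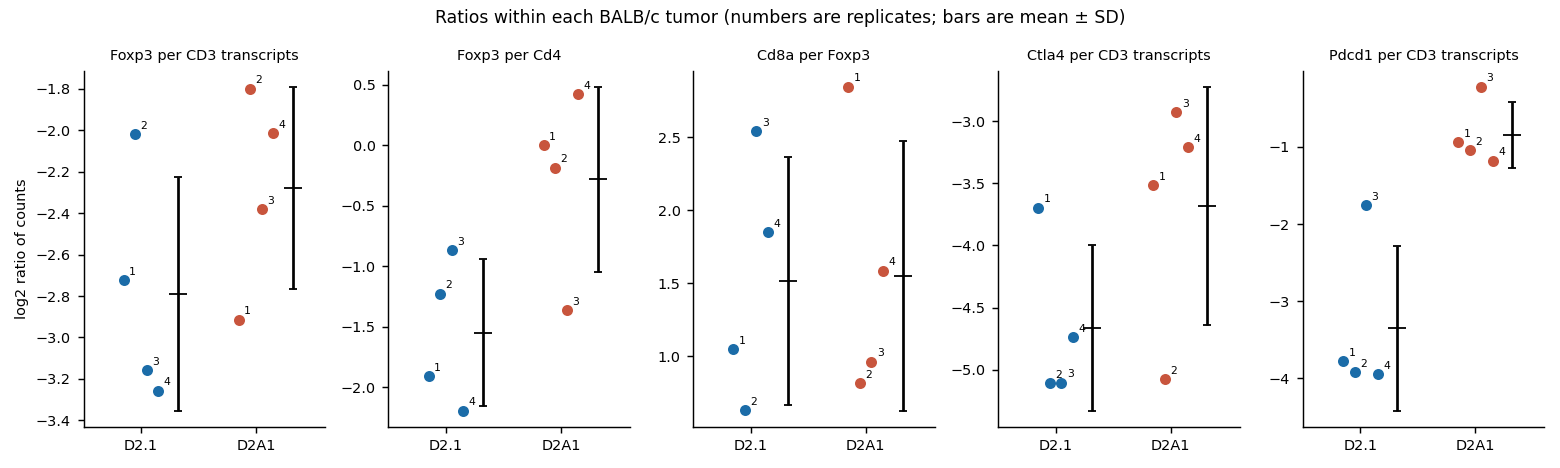
Log2 ratio of counts in each BALB/c tumor for 5 ratios, with D2.1 in blue and D2A1 in red. Numbers are replicates and bars are the mean ± SD of 4 tumors. The lines overlapped for Foxp3 per CD3, Foxp3 per Cd4, Cd8a per Foxp3 and Ctla4 per CD3 and separated for Pdcd1 per CD3, with a mean log2 ratio of -3.35 in D2.1 and -0.85 in D2A1.

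Among 9 binding partners of the receptors, edgeR called none of the 8 tested between hosts in either line. In D2A1 tumors 2 had an unadjusted p under 0.05 in edgeR. DESeq2 called 0 in D2.1 and 1 in D2A1 tumors. Over all genes edgeR called 0.871% higher and 0.0201% lower in D2.1 tumors and 0.906% and 0.261% in D2A1 tumors, so no call among 8 is near these shares. DESeq2 called 3.12% and 2.91% of all genes, and 10.1% had such an unadjusted p in D2A1 tumors. Between the lines in BALB/c mice the TIGIT ligands Nectin2 and Pvr and the TIM-3 ligand Lgals9 were lower in D2.1, with Nectin2 at -1.84 (SE 0.251, adjusted p = 3.67e-04), Pvr at -1.23 (SE 0.171, adjusted p = 3.91e-04) and Lgals9 at -1.08 (SE 0.236, adjusted p = 0.00562). Ceacam1 and Hmgb1, which also bind TIM-3, were not called (0.63, adjusted p = 0.303, and 0.04, adjusted p = 0.866). The CTLA-4 ligands Cd80 (1.10, SE 0.380, adjusted p = 0.0472) and Cd86 (0.64, SE 0.174, adjusted p = 0.0176) and the ICOS ligand Icosl (0.80, SE 0.223, adjusted p = 0.0193) were higher in D2.1. These were 3 higher and 3 lower of 8 tested, where 16.8% of all genes were called higher and 15.8% lower. Without replicates 1 and 4 of D2.1, the calls of Cd80 (adjusted p = 0.199) and Icosl (adjusted p = 0.0751) were lost. SCID-beige tumors gave the same directions for Nectin2 (-1.69), Pvr (-0.70), Lgals9 (-1.01), Cd86 (0.76) and Icosl (1.62), all called, where 17.2% of all genes were called higher and 14.8% lower. Of the 5 partners tested in culture, Lgals9 (-0.90, SE 0.185, adjusted p = 0.00424) and Nectin2 (-0.86, SE 0.211, adjusted p = 0.0103) were lower in D2.1 cells, as were 20.7% of all genes. Tigit and its ligand Nectin2 were thus both called lower in D2.1 in SCID-beige tumors and in culture.

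Of 16 other genes associated with Tregs, 2 of 14 tested were called higher in BALB/c D2.1 tumors, against 0.871% of all genes, the chemokine receptor Ccr8 (4.47, SE 0.794, adjusted p = 0.0249) and the integrin Itgae (1.66, SE 0.309, adjusted p = 0.0305). The calls held in 4 and 3 of 9 fits that left out 1 library, and neither held without replicates 1 and 4 of D2.1 from BALB/c mice (adjusted p = 0.415 and 0.350). In D2.1 tumors DESeq2 called 5 of the list. EdgeR called none of 11 in D2A1 tumors, where 4 had an unadjusted p under 0.05 and DESeq2 called 1. Over all genes 10.1% had such a p in D2A1 tumors, and DESeq2 called 3.12% in D2.1 and 2.91% in D2A1 tumors. Of these genes, 7 of 14 were called higher and 1 lower in D2.1 than in D2A1 tumors of BALB/c mice, where 16.8% of all genes were called higher. Not all of these genes mark T cells here. In culture 6 of 7 tested were called higher in D2.1 cells, as were 24.2% of all genes, led by Lrrc32 (6.69), Il1rl1 (5.84) and Tnfrsf9 (5.10), at 10.2, 5.69 and 17.4 CPM in D2.1 cells, while Foxp3 had 3 counts there.

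Per gene length, the order of members differed between groups. Mean FPKM in D2.1 tumors from BALB/c mice was highest for Lag3 (13.03 ± 4.37), then Tigit (9.35 ± 3.12), Havcr2 (7.02 ± 1.96) and Cd274 (5.46 ± 1.90), neighbors that lay within each other's spread, and lowest for Foxp3 (1.97 ± 0.209) and Pdcd1lg2 (0.724 ± 0.599). D2A1 tumors of BALB/c mice were led by Tigit (14.6 ± 6.24) and Havcr2 (10.5 ± 1.04), with Lag3 at 2.94 ± 0.456 and Foxp3 at 0.317 ± 0.172. In SCID-beige mice Havcr2 had the highest mean in both lines. In D2.1 tumors it was 7.86 ± 6.24, and without replicate 4 it was 5.09 ± 0.847, below Lag3 at 5.32 ± 0.429. In D2A1 tumors Havcr2 (6.76 ± 2.39) and Tigit (6.42 ± 1.26) lay within each other's spread.

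The genes nearest to Foxp3, Havcr2 and Cd274 were found by the root mean square (RMS) distance between centered log2 CPM over the 18 tumors, with no test. The nearest genes to Foxp3 among 16036 were Themis (0.781), Cacna1e (0.793), Ctla4 (0.826), Cd3d (0.830) and Cd6 (0.833), against a median distance of 2.24. For Havcr2 they were Plpbp (0.400), Kpna2 (0.402) and Ptger2 (0.412), and for Cd274 Samhd1 (0.376), Parp11 (0.412) and Trim35 (0.414), against medians of 0.762 and 0.798. The points share libraries and the grouping of tumors. Within the set, the closest pairs were Havcr2 with Cd274 (0.590) and Tigit with Cd274 (0.674), and the Treg genes paired as Foxp3 with Ctla4 (0.826). The RMS deviation of a gene from its own mean, its distance to a flat line, was 2.17 for Foxp3, 0.552 for Havcr2 and 0.597 for Cd274. Havcr2 was thus no nearer to Cd274 than to a flat line. Short distances between genes of little spread do not show that they moved together.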

How the data were processed

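RNA-seq of individual snap-frozen tumors and of cultures was aligned with STAR to mm10, per the labels. The authors deposited read counts per gene and FPKM, tumors and cultures in separate tables. The counting program, annotation and strand setting are not given in the sources used here. The FPKM use different gene lengths in the 2 tables (median ratio 1.447), so levels were compared between genes within a table only. Unmatched identifiers held 0.0446% of tumor counts and 0.0969% of culture counts.

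Counts were fitted on all genes with edgeR 4.0.16 in R 4.3.3 (filterByExpr, trimmed mean of M values, quasi-likelihood test, Benjamini-Hochberg adjustment over all genes tested, threshold 0.05), each comparison on its own groups. On simulated counts, edgeR recovered 97% of 200 changed genes (log2 change 2) for the D2.1 host comparison (14929 genes) and 69% for the interaction (16036 genes). The false share of DESeq2 calls there was 13.4% for the D2.1 host comparison and 10.1% in culture (12489 genes). The simulation gave every gene the same dispersion and no differences between tumors of a group beyond it. These shares therefore check the code and do not measure power or error in these tumors. Ratios used a pseudocount of 0.5 and exact permutation tests. Counting intervals cover counting error only. Alternatives were DESeq2 1.42.0, other filters, a replicate block, 1 fit of all 18 tumors and leaving out each library. Replicate numbers paired the samples by correlated deviations between lines in BALB/c (0.101 to 0.493) and in culture (0.184 to 0.491), a hint from the data and not from the labels. The named genes are the 10 members, receptor partners, the 5 nearest genes and up to 3 called genes per list. The members and lists were chosen with earlier results of these data known.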

Additional observations from a re-analysis of the deposited data

Results flagged for a closer look

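A sample far from the others of its group was flagged in 6 of 50 member and ratio groups of 4 or 5 libraries, by Dixon's test at the 95% level. Chance gives about 1 in 20 for independent groups, whereas these groups share libraries. Ctla4 in D2.1 and Icos in D2A1 tumors of SCID-beige mice, each a single count in 1 library, were not among those flagged. That count made up the whole range of its group, so the lack of a flag does not mean that these groups passed the test. Pdcd1 was at 21.6 CPM in replicate 3 of the D2.1 tumors of BALB/c mice, against 1.69 to 4.69 CPM in the other 3. That tumor also stood apart in Pdcd1 per CD3 count, at 0.297 against 0.0649 to 0.0728. Pdcd1 was at 1.32 CPM in replicate 5 of the D2.1 tumors of SCID-beige mice, against 0.235 to 0.368 CPM in the other 4.

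Havcr2 reached 51.8 CPM in replicate 4 of the D2.1 tumors of SCID-beige mice, against 11.7 to 15.6 CPM in the rest of the group, and 30.1 CPM in replicate 4 of the D2A1 tumors of BALB/c mice, against 25.3 to 25.8 CPM. Cd274 was at 21.7 CPM in replicate 4 of the D2A1 tumors of SCID-beige mice, against 10.6 to 13.4 CPM in the other 4.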

How the results depend on the processing

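Member counts shifted with the tool, the filter and the libraries, and the cause was not tested. For the host comparison in D2.1 tumors, DESeq2 called 8 members (3.12% of all genes), the replicate block called 1 (0.0938%) and leaving out the libraries with milk or skin transcripts, chosen after seeing the data, called 0 (11 of 15672 genes in all). For D2A1 tumors, DESeq2 called 5 (2.91% of all genes), a filter of 10 counts 2 (0.938%), no filter 4 (0.889%) and 1 fit of all 18 tumors 3 (1.49%). Leaving out 1 library at a time gave 2 to 5 members for the host comparison in D2.1 tumors (0.171% to 2.05% of all genes). In D2A1 tumors it gave 0 to 1 (0.182% to 1.19%). Between lines it gave 1 to 2 in SCID-beige mice (27.2% to 33.6%) and 1 to 3 in culture (34.3% to 46.3%). It moved Cd8a per Foxp3 between -0.38 and 0.40, with 0.032 without the milk or skin libraries. Ratios tested with same-numbered tumors as pairs, also chosen after seeing the data, could not reach the threshold with 4 pairs. Replicate numbers did not pair the samples between hosts or between lines in SCID-beige mice. The block, which called 6 members between lines in BALB/c mice by adding Havcr2, changed no other call there or in culture. With the block 47.6% of all genes were called between lines in BALB/c mice and 60.4% in culture, against 32.6% and 44.9% in the main fit.

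Sign changes occurred in differences that missed the threshold. Havcr2 between hosts in D2.1 tumors was 0.025 with the replicate block and -0.34 to 0.50 without 1 library, and -0.39 to 0.48 between lines in SCID-beige mice. Pdcd1lg2 gave -0.21 between hosts in D2.1 tumors without the milk or skin libraries, and between lines in BALB/c mice -0.23 with the block, -0.92 without those libraries and -0.55 to 0.45 without 1 library. In SCID-beige mice it was 0.0015 under a filter of 10 counts, 0.0016 with no filter, 0.0145 with the block and -0.24 to 0.13 without 1 library. Cd274 between lines in BALB/c mice ran from -0.46 to 0.079. The interaction of Pdcd1 ran from -0.13 to 1.82 and that of Pdcd1lg2 from -0.56 to 0.44, with -0.89 without the milk or skin libraries. Of the other values of single members, 263 kept their direction and side of the threshold under settings other than leaving out 1 library, 12 newly passed and 10 no longer passed. Depth limits Foxp3 and Ctla4 in SCID-beige tumors, at 0 to 5 counts per library.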

Other observations

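Some interferon-gamma response genes, among them the transactivator of the MHC class II genes whose products LAG-3 binds, were higher in BALB/c than in SCID-beige mice. In D2.1 tumors 2 of 8 tested were called, against 0.871% of all genes called higher, the chemokine Cxcl9 (2.61, SE 0.287, adjusted p = 0.00134) and the class II transactivator Ciita (1.62, SE 0.317, adjusted p = 0.0373). Without replicates 1 and 4 of the D2.1 tumors from BALB/c mice, Cxcl9 was still called (adjusted p = 0.0374) and Ciita was not (adjusted p = 0.509). In D2A1 tumors 4 of 7 were called, against 0.906% of all genes, among them Cxcl9 (4.01, SE 0.346, adjusted p = 0.00134), Ciita (2.90, SE 0.458, adjusted p = 0.0139) and the guanylate-binding protein Gbp2 (1.70, SE 0.259, adjusted p = 0.0117). For Cd274 edgeR called neither host difference and DESeq2 called that in D2.1 tumors (adjusted p = 0.0215).

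Among 9 other costimulatory and inhibitory receptors, Cd27 (2.88) and Cd96 (2.50) were called higher in D2.1 tumors of BALB/c than of SCID-beige mice, against 0.871% of all genes. Neither call held without replicates 1 and 4 (adjusted p = 0.244 and 0.153). Between the lines in BALB/c mice 8 of 9 were called higher in D2.1, against 16.8% of all genes. Replicate 3 of the D2.1 tumors of BALB/c mice had the highest CPM of its group for 6 of the 10 members and replicate 2 the lowest for 6.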
